A study of Mus musculus with 16 samples.

Results

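Mural cells are the contractile and supporting cells that wrap the endothelial tube of brain vessels. Genes that mark them were followed here in bulk RNA sequencing of mouse brain, out of 39179 gene identifiers in the count table: 6 pericyte genes (Pdgfrb, Rgs5, Kcnj8, Abcc9, Vtn and Anpep) and 4 vascular smooth muscle genes (Acta2, Myh11, Tagln and Myl9). The rule names the genes as markers of these cells and uses no measured value, although it was written with earlier results of these data known, and all 10 passed the filter on low counts in every comparison. The series held 16 mice in 4 groups of 4: wild-type mice (MRPS5 WT) and mice homozygous for V338Y, a point mutation knocked into the mitochondrial ribosomal protein gene Mrps5, each at 3 months and at 19 months of age. The study gives the knock-in strain as C57/BL6, and no group was treated. The study's methods name the cerebral cortex as the tissue, and the design asks how age changes expression in each genotype and how the mutation changes it at each age.

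Pericytes sit on capillaries inside the vessel's basement membrane, are recruited there by endothelial PDGF-B acting on the receptor PDGFRβ, and help to maintain the blood-brain barrier. Smooth muscle cells ring arterioles and arteries, and set vessel diameter through an actin and myosin apparatus whose genes are driven by serum response factor (SRF) with its coactivator myocardin. The division is not strict, since smooth muscle cells also use Pdgfrb and Rgs5, and Kcnj8 with Abcc9 encodes the pore and the regulatory subunit of an ATP-sensitive potassium channel in both. In a bulk sample, fewer cells of a type and less RNA per cell cannot be told apart.

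The libraries held 6181448 to 19601664 counts each, and some features of the whole series bear on the age comparisons. The methods describe every mouse as female, but the 3-month libraries of both genotypes carried the Y-linked gene Ddx3y at 119 ± 6.56 and 111 ± 11.7 CPM (counts scaled to library size after TMM normalization; mean ± SD, n = 4) and nearly no Xist, whereas the 19-month libraries had no Ddx3y count and Xist at 762 to 1180 and 705 to 910 CPM. Sex and age therefore cannot be told apart. The titles of all 19-month samples, and of no 3-month sample, end in -N, a mark that the labels do not explain and that likewise cannot be told apart from age. The summed level of 8 cerebellum genes was 686 to 1128 CPM in wild-type and 157 to 1581 CPM in V338Y libraries at 3 months, against 98.6 to 119 and 104 to 125 CPM at 19 months, so that cerebellum content also moved with age. The exception was V338Y mouse 14, a 3-month library with 157 CPM, in which the cerebellar granule cell gene Gabra6 stood at 1.41 CPM while the other 3 mice of its group had 118 to 173 CPM. The endothelial markers that a brain sample should hold were present in all libraries, with Cldn5, a tight junction protein, at 34.5 ± 1.25 CPM in 3-month wild-type mice.

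SRF acts through the CArG box, which has 2 C, 6 bases that are each A or T, and 2 G. Promoters of RefSeq (GRCm38.p6, 250 bases before to 50 bases after the gene start) were found for 7 of the 10 genes, and the Acta2, Myl9 and Rgs5 promoters are shown because they set 2 smooth muscle genes beside the most abundant pericyte gene but one. Capitals mark CArG boxes with at most 1 mismatch in the 6 central bases. The box reads the same on both strands, and overlap with other motifs was not searched. The Acta2 promoter lies at chr19:34255324-34255623 on the minus strand, that of Myl9 at chr2:156775214-156775513 on the plus strand and that of Rgs5 at chr1:169655251-169655550 on the plus strand.
Acta2: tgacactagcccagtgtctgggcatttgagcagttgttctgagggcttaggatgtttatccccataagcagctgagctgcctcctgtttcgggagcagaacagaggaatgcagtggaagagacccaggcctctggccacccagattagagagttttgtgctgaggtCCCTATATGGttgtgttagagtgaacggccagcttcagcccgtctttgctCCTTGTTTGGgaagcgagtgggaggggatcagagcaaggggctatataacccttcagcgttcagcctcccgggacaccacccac
Myl9: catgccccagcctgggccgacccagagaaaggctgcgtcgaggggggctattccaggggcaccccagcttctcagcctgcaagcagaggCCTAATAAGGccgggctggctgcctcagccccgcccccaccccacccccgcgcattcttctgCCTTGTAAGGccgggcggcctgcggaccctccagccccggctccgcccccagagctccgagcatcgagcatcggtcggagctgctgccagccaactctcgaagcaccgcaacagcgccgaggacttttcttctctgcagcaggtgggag
Rgs5: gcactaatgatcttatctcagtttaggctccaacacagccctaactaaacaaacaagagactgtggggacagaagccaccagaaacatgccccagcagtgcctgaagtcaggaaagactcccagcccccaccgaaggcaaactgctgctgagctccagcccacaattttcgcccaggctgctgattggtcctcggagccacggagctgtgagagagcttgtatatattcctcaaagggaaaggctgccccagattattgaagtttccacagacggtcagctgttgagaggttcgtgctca
The Acta2 promoter held 2 boxes with 1 mismatch each, CCCTATATGG starting 84 bases and CCTTGTTTGG starting 34 bases before the gene start. The Myl9 promoter held CCTAATAAGG without mismatch, 161 bases before the start, and CCTTGTAAGG with 1 mismatch, 99 bases before it. No match lay in the windows of Rgs5, Kcnj8, Abcc9, Vtn and Anpep. The Anpep window, chr7:79848161-79848460 on the minus strand, does not hold the start of its GENCODE gene model at chr7:79861059. The bases around that start were not searched. No promoter was found for Pdgfrb or for the smooth muscle genes Myh11 and Tagln, so these were not searched. Of the 32851 promoters in the table, 1.63% held a box without mismatch, 9.98% held one with at most 1 mismatch and 0.822% held 2 or more. These matches describe the letters of the windows only.

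In young wild-type brain the pericyte genes Vtn and Rgs5 were the most abundant of the 10. On the scale of mean CPM per kb of exon, which allows genes to be set side by side, Vtn (vitronectin, a matrix protein that brain pericytes secrete) was highest at 33.5, followed by Rgs5 (a regulator of G protein signalling) at 21.4 and Myl9 (the regulatory light chain of smooth muscle myosin) at 9.50. Pdgfrb followed at 5.70, Acta2 (smooth muscle α-actin) at 4.0 and Tagln (the actin-binding protein transgelin) at 1.98. The ranges over the 4 mice of these 6 genes did not overlap between neighbours. Kcnj8 at 1.54, Abcc9 at 1.41 and Myh11 (smooth muscle myosin heavy chain) at 1.21 CPM per kb could not be ordered, since the ranges of neighbours overlapped, and Anpep (aminopeptidase N, or CD13) was lowest at 0.437.

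The order differed between the groups for Acta2 and Myh11. In 19-month wild-type mice Acta2 reached 23.2 CPM per kb and stood above Pdgfrb at 17 without overlap, and Myh11, at 7.11, had the seventh rank instead of the ninth, although its range overlapped that of Abcc9 at 6.75. In 19-month V338Y mice Acta2, at 14.5, and Pdgfrb, at 15.7 CPM per kb, overlapped. Myh11, at 4.26, was below Abcc9 without overlap there, whereas these genes overlapped in both 3-month groups. Vtn, Rgs5 and Myl9 were the 3 highest genes in all 4 groups and Anpep the lowest.

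**Figure D1:**
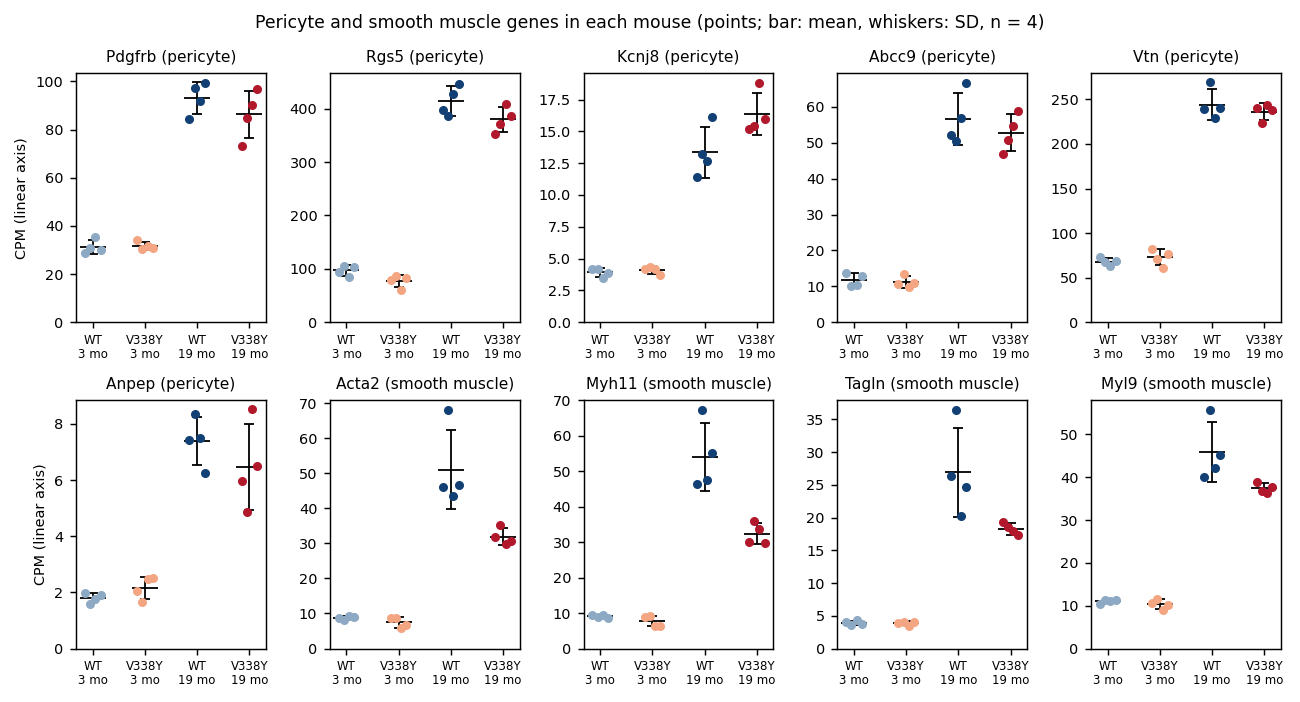
Level of each of the 10 genes in each mouse, in CPM on linear axes that start at 0, for wild-type (WT, blue) and V338Y (orange and red) mice at 3 and 19 months (mo); points are mice, horizontal bars means and whiskers SD (n = 4). All 19-month points lie above all 3-month points of the same genotype, and in the 4 smooth muscle panels all 19-month V338Y points lie below all 19-month WT points.

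The age comparison in wild-type mice gave a rise of every pericyte gene. Pdgfrb, the PDGF-B receptor, was at 28.6, 31.0, 35.3 and 30.0 CPM in the 3-month mice (numbers 9 to 12) and at 84.5, 97.2, 91.8 and 99.3 CPM in the 19-month mice (numbers 12 to 15). The groups were far apart, and the gene rose 2.99-fold (log2 fold change 1.58 ± 0.0654 SE, adjusted p = 7.2e-19). Rgs5 was at 94.3, 106, 84.5 and 104 CPM at 3 months and at 398, 386, 427 and 447 CPM at 19 months. The lowest old mouse thus exceeded the highest young mouse, and Rgs5 rose 4.29-fold (log2 fold change 2.10 ± 0.0655, adjusted p = 4.9e-14). Vtn ranged from 63.0 to 73.0 CPM at 3 months and from 229 to 269 CPM at 19 months, a 3.63-fold rise with the narrowest error of the 10 genes (log2 fold change 1.86 ± 0.0531, adjusted p = 9.9e-23). Anpep, the least abundant gene, rose from 1.59 to 1.97 CPM at 3 months to 6.26 to 8.36 CPM at 19 months (16 to 24 and 37 to 101 counts; log2 fold change 2.07 ± 0.175, adjusted p = 1.1e-11).

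Both subunits of the vascular ATP-sensitive potassium channel rose. The channel opens when cellular ATP falls and relaxes the cell by hyperpolarising it; its genes are neighbours on chromosome 6, 16247 bases apart and both on the minus strand. Kcnj8, the pore, was at 4.19, 4.17, 3.46 and 3.88 CPM in 3-month and at 11.4, 13.2, 12.7 and 16.1 CPM in 19-month wild-type mice, a 3.35-fold rise (log2 fold change 1.75 ± 0.135, adjusted p = 1.5e-12). Abcc9, the sulfonylurea receptor subunit, was at 13.8, 10.1, 10.4 and 13 CPM and then at 52.2, 50.6, 57.0 and 66.5 CPM, a 4.84-fold rise that was the largest among the pericyte genes (log2 fold change 2.28 ± 0.101, adjusted p = 3.6e-14). Their ratio per kb was therefore lower in old wild-type mice, 0.774 ± 0.0638 Kcnj8 per Abcc9 (0.716 to 0.855), than in young ones, 1.11 ± 0.176 (0.979 to 1.36), without overlap, while in V338Y mice it was 1.21 ± 0.153 at 3 months and 1.02 ± 0.101 at 19 months with overlapping ranges. The ratio was formed after the values were seen and was not tested. The neuronal and endocrine members of the same channel family went the other way: Kcnj11 fell by 0.61 (adjusted p = 1.7e-06) and Abcc8 fell by 0.48 (adjusted p = 9.4e-08) on the log2 scale in wild-type mice.

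The smooth muscle genes rose as well, and 3 of the 4 had larger fold changes than any pericyte gene, although differences between genes were not tested. Acta2 was at 8.75, 8.20, 9.14 and 9.04 CPM at 3 months and at 46.0, 67.9, 43.6 and 46.5 CPM at 19 months. The young mice lay within 1 CPM of each other, whereas old mouse 13 stood well above the others, and the gene rose 5.92-fold (log2 fold change 2.57 ± 0.172, adjusted p = 1.1e-06). Myh11 went from 9.49, 9.0, 9.49 and 8.70 CPM to 46.4, 67.1, 47.5 and 55.1 CPM, a 5.96-fold rise (log2 fold change 2.58 ± 0.122, adjusted p = 2.8e-11). Tagln went from 4.07, 3.57, 4.35 and 3.79 CPM to 26.3, 36.4, 20.2 and 24.7 CPM. This 7.01-fold rise was the largest of the 10 genes (log2 fold change 2.81 ± 0.196, adjusted p = 1.2e-07). Myl9 went from 10.5, 11.3, 11.1 and 11.3 CPM to 40.1, 55.8, 42.2 and 45.3 CPM, a 4.18-fold rise within the range of the pericyte genes (log2 fold change 2.06 ± 0.0972, adjusted p = 1.5e-15).

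All 10 genes thus passed an adjusted p of 0.05 as higher in old wild-type mice, where 31.4% of the 16101 genes tested did, and all 10 also passed 1e-05, where 14.5% did. In all 10 the groups did not overlap, a pattern that 26.9% of the genes tested showed in this direction. The median log2 fold change was 1.97 for the pericyte genes and 2.57 for the smooth muscle genes, beside -0.01 for all genes tested. Mouse 13 did not carry these results: without it the log2 fold changes of Acta2, Myh11 and Tagln were 2.39, 2.44 and 2.61.

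In V338Y mice the same 10 genes were higher at 19 months, where 23.1% of the 16770 genes tested were, and 9 of them passed 1e-05, where 4.16% did. Anpep was the exception, with an adjusted p of 4.3e-05. The groups did not overlap in any of the 10, a pattern of 22.2% of the genes tested. Among the pericyte genes Rgs5 rose most, from 79.0, 86.3, 61.1 and 82.0 CPM in the 3-month mice (numbers 13 to 16) to 353, 372, 409 and 386 CPM in the 19-month mice (numbers 17 to 20), 4.91-fold (log2 fold change 2.29 ± 0.0911, adjusted p = 3e-09). Pdgfrb rose least, 2.71-fold, from 30.5 to 34.2 CPM to 73.3 to 96.7 CPM. Abcc9 rose 4.66-fold, Kcnj8 3.98-fold, Vtn 3.22-fold and Anpep 3.01-fold.

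The smooth muscle genes of V338Y mice rose by amounts closer to those of the pericyte genes. Acta2 was at 8.81, 8.77, 5.77 and 6.60 CPM at 3 months and at 31.7, 35.3, 29.9 and 30.8 CPM at 19 months (log2 fold change 2.07 ± 0.116, adjusted p = 3.3e-08). Myh11 was at 8.88, 9.23, 6.47 and 6.48 CPM and then at 30.0, 35.8, 33.8 and 29.8 CPM (log2 fold change 2.05 ± 0.117, adjusted p = 4e-08). In both genes the young mice split, with mice 15 and 16 below mice 13 and 14. Tagln was at 3.96, 4.08, 3.52 and 4.04 CPM and then at 19.4, 18.5, 18 and 17.3 CPM (log2 fold change 2.21 ± 0.0913, adjusted p = 2.6e-09). Myl9 was at 10.7, 11.6, 8.93 and 10.1 CPM and then at 38.9, 36.8, 36.3 and 37.8 CPM (log2 fold change 1.84 ± 0.0775, adjusted p = 3e-09). The median log2 fold change was 1.84 for the pericyte genes and 2.06 for the smooth muscle genes, beside -0.03 for all genes tested.

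V338Y mouse 14, the young library with few cerebellum reads, was set beside the old mice of its genotype. In V338Y mouse 14 the 10 genes stood between 1.66 CPM (Anpep) and 86.3 CPM (Rgs5), each below the lowest 19-month V338Y mouse, and the 19-month means were 2.83-fold (Pdgfrb) to 4.48-fold (Tagln) higher than its values. V338Y mouse 15, with the most cerebellum reads, had the lowest level of its group in all 4 smooth muscle genes and in 3 of the 6 pericyte genes. V338Y mouse 13 also had many cerebellum reads (Gabra6 at 132 CPM). It was lowest in none of the 10 genes and highest in 1 smooth muscle and 2 pericyte genes. Mouse 14 is 1 library, and its cerebellum sum of 157 CPM was still above the 104 to 125 CPM of the 19-month V338Y mice. All 10 genes remained called in each of the age fits without 1 mouse. The fit without mouse 14 leaves only young V338Y libraries with many cerebellum reads, so it cannot bear on cerebellum content. The part of sex and of cerebellum content was not tested.

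**Figure D2:**
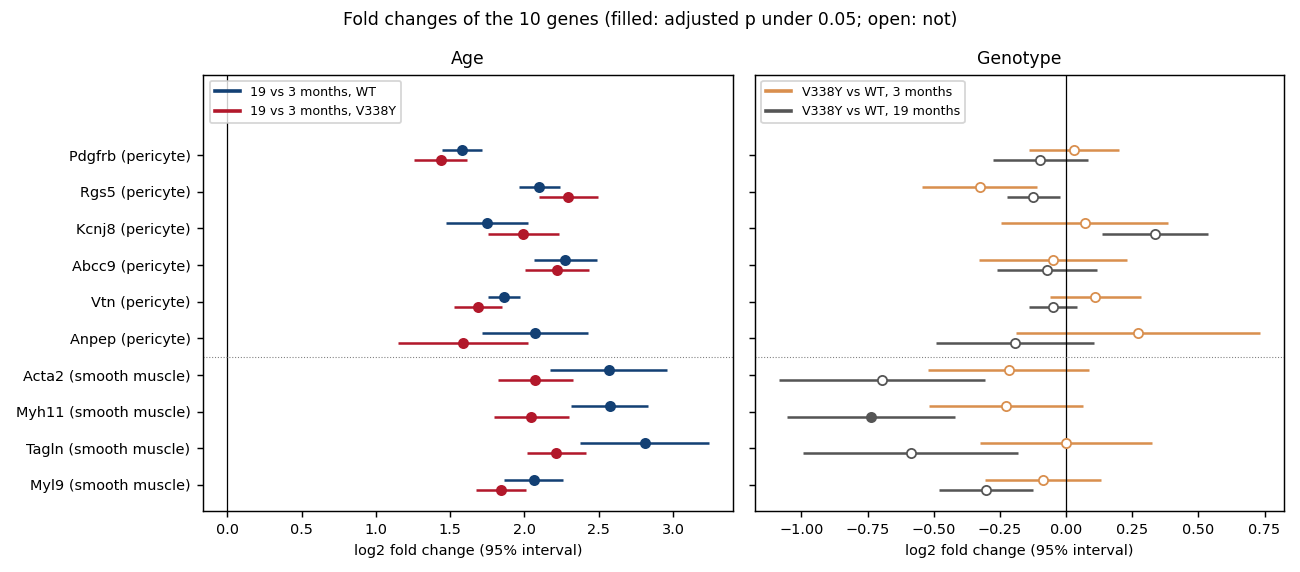
Log2 fold change with its 95% interval for the 10 genes, on the left 19 against 3 months in WT (blue) and V338Y (red), on the right V338Y against WT at 3 months (orange) and 19 months (grey); filled points passed an adjusted p of 0.05. All 20 age differences are filled and lie between 1.44 and 2.81, whereas among the genotype differences only Myh11 at 19 months (-0.74) is filled.

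Other vessel-wall genes moved in the same direction, beside the 31.4% (wild-type) and 23.1% (V338Y) of all genes tested that were called higher. Of 14 further pericyte genes 14 were called higher at 19 months in wild-type and 14 in V338Y mice, with median log2 fold changes of 1.47 and 1.41. Among them were Notch3 (the Notch receptor of mural cells; log2 fold change 2.14 in wild-type), P2ry14 (a receptor for UDP-glucose; 2.12) and Tbx18 (a T-box factor of mural cells; 2.07). Of 15 further smooth muscle genes tested 13 were called higher in each genotype, with medians of 1.57 and 1.26. Pln (phospholamban, which restrains the calcium pump of the sarcoplasmic reticulum), Des (desmin) and Mylk (myosin light chain kinase) had log2 fold changes of 2.56, 2.06 and 1.68 in wild-type mice. The exceptions were Tpm1 (-0.08 and -0.13) and Ppp1r14a (0.06 and 0.24), which did not pass the test in either genotype, and a sixteenth gene, Actg2, was below the filter with 0 to 12 counts per library.

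The ligand side of the PDGF pathway moved in part. Of the ligands and the second receptor, 3 of 5 were called higher in each genotype, beside 31.4% (wild-type) and 23.1% (V338Y) of all genes tested. Pdgfb, the endothelial ligand of Pdgfrb, rose 2.16-fold in wild-type mice (log2 fold change 1.11 ± 0.0847, adjusted p = 1.1e-12), Pdgfd, another ligand of the same receptor, 2.26-fold, and Pdgfra, the receptor of oligodendrocyte precursors and fibroblasts, 1.95-fold. Pdgfa (log2 fold change -0.10) and Pdgfc (0.13), which act chiefly through Pdgfra, did not pass the test. In the Notch list of 7 genes, 5 were called higher and 1, Hey1 (-0.15), lower in wild-type mice, and 6 higher in V338Y mice. Dll4 and Jag1, which encode Notch ligands of the vessel wall, had log2 fold changes of 2.09 and 1.47 in wild-type mice. Of SRF and its coactivators, Srf (0.14, adjusted p = 0.05) and Mrtfa (0.03) were not called in wild-type mice, while Mrtfb rose by 0.68 and myocardin (Myocd), at 2 to 4 counts per library at 3 months and 8 to 13 at 19 months, rose by 2.0 on the log2 scale (adjusted p = 0.00014).

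The rise was shared with other cells of the vessel and its surroundings. Over all genes tested, 31.4% in wild-type and 23.1% in V338Y mice were called higher. All 15 endothelial genes were called higher in both genotypes, with medians of 2.08 and 2.25. Pecam1, an adhesion molecule of endothelial junctions, rose from 20 ± 2.11 to 109 ± 2.76 CPM in wild-type mice, and Cldn5 from 34.5 ± 1.25 to 175 ± 9.66 CPM. The pericyte medians were thus below and the smooth muscle median in wild-type mice above the endothelial one. Of 15 genes of vascular and meningeal fibroblasts, 15 and 14 were called higher (medians 1.61 and 1.14), Dcn (decorin) from 20 ± 4.19 to 59.4 ± 3.71 and Col1a1 (a chain of type I collagen) from 13 ± 1.34 to 26.8 ± 1.92 CPM in wild-type mice. Of 6 perivascular macrophage genes 6 and 4, and of 5 blood genes 5 and 5, were called higher, with medians of 1.91 and 1.68 and of 1.8 and 1.22. Astrocyte genes (6 of 6 called higher, medians 0.94 and 0.86) and microglia genes (5 of 5, medians 0.81 and 0.76) rose by less. Of 7 neuron genes 5 were called lower in each genotype (medians -0.39 and -0.47). Over all genes tested, 5065 of 16101 were called lower in wild-type and 4306 of 16770 in V338Y mice. The lists were compared by these counts and medians only.

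**Figure D3:**
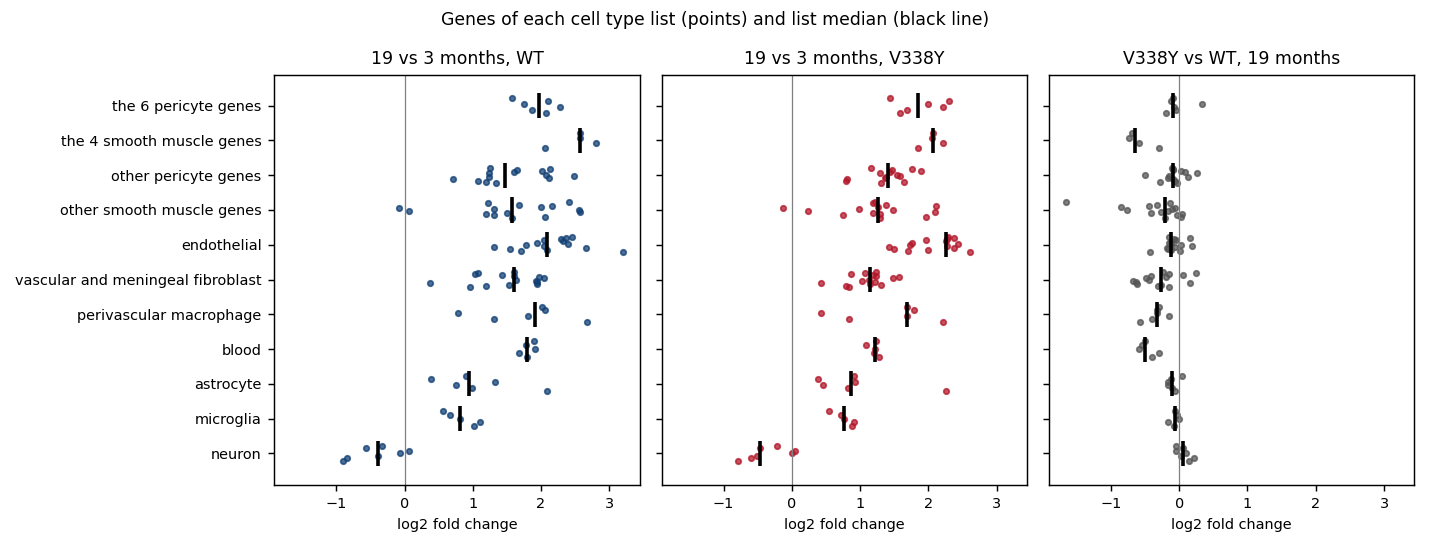
Log2 fold changes of the genes of each cell type list (points) with the list's median (black line), for 19 against 3 months in WT (left) and V338Y (middle) and for V338Y against WT at 19 months (right), on 1 shared axis. In both age panels the pericyte, smooth muscle and endothelial medians lie between 1.26 and 2.57 and the neuron medians below 0; in the right panel the 4 smooth muscle genes have the lowest median (-0.64).

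Measured within each mouse, the 4 smooth muscle genes gained on the 6 pericyte genes with age, and more so in the wild-type group. The mean log2 CPM of the 4 smooth muscle genes minus that of the 6 pericyte genes was -1.06 ± 0.097 (SD) in young and -0.53 ± 0.249 in old wild-type mice, a difference of 0.53. In old wild-type mouse 13 it was -0.17, and in the other 3 old mice -0.57, -0.73 and -0.65, each still above the highest young mouse at -0.92. Without mouse 13 the difference was 0.41. In V338Y mice the same quantity was -1.22 ± 0.156 at 3 months and -1.03 ± 0.173 at 19 months, a difference of 0.19 with overlapping ranges (-1.37 to -1.05 and -1.20 to -0.85). The further genes of both classes did not share this gain. In wild-type mice the mean log2 CPM of the further smooth muscle genes went from 1.41 to 2.75, and that of the further pericyte genes from 1.98 to 3.49. In V338Y mice these means went from 1.35 to 2.42 and from 2.06 to 3.42. Because the classes are means over chosen genes, these values are given without a test.

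The endothelial genes give a second yardstick. The pericyte mean relative to the mean of the 15 endothelial genes was -0.58 ± 0.074 in young and -0.80 ± 0.049 in old wild-type mice. In V338Y mice it was -0.55 ± 0.055 and -0.77 ± 0.071. The pericyte mean thus rose less than the endothelial mean in each genotype. Single genes overlapped between the lists, with log2 fold changes of 1.58 to 2.28 (pericyte) and 1.31 to 3.20 (endothelial) in wild-type mice. The smooth muscle mean relative to the same genes was -1.64 ± 0.075 in young and -1.33 ± 0.239 in old wild-type mice, whereas in V338Y mice it was -1.77 ± 0.159 and -1.79 ± 0.133, which differ by less than the SD of either group.

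**Figure D4:**
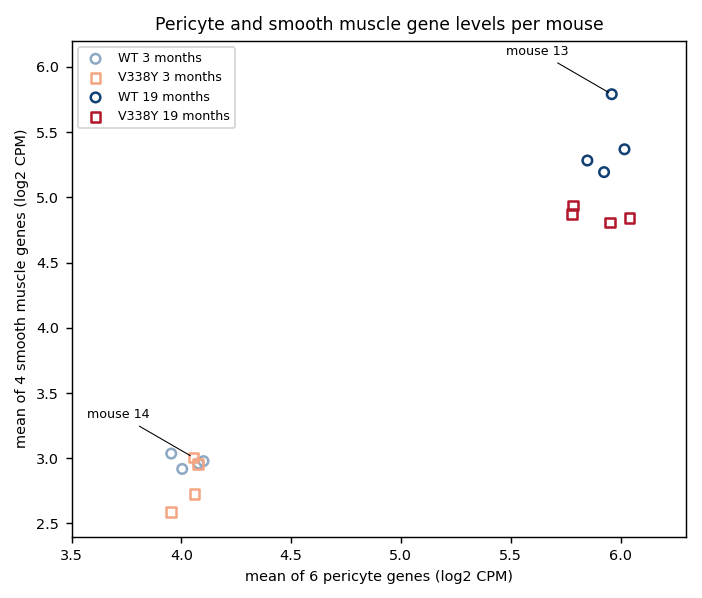
Mean log2 CPM of the 6 pericyte genes (horizontal) against that of the 4 smooth muscle genes (vertical) in each of the 16 mice (open circles WT, open squares V338Y, coloured by group). Old and young mice form separate groups on both axes; among old mice the WT points (5.19 to 5.79) lie above the V338Y points (4.81 to 4.94) on the vertical axis, with mouse 13 highest, and the genotypes overlap on the horizontal axis.

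At 3 months no difference between the genotypes was detectable in these genes. None of the 10 genes was called by edgeR, where 10 genes (0.0616%) of the 16241 tested were, and DESeq2 also called none. An unadjusted p under 0.05 in edgeR was reached by 815 of the 16241 genes and by 1 of the 10 members. That gene was Rgs5, at 94.3, 106, 84.5 and 104 CPM in wild-type and 79.0, 86.3, 61.1 and 82.0 CPM in V338Y mice. Its ranges overlapped, and the log2 fold change was -0.33 (95% interval -0.54 to -0.11, adjusted p = 0.92). The intervals of the other 9 genes included 0 and were widest for Anpep (-0.19 to 0.73) and narrowest for Pdgfrb (-0.14 to 0.20). Acta2 (-0.22, -0.52 to 0.09) and Myh11 (-0.23, -0.52 to 0.06) had intervals that reached little above 0, and their lowest values were those of V338Y mice 15 and 16. The median was 0.05 for the pericyte and -0.15 for the smooth muscle genes, beside 0.01 for all genes tested.

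At 19 months 1 smooth muscle gene, Myh11, was lower in V338Y mice, and no pericyte gene was called. Myh11 was at 46.4, 67.1, 47.5 and 55.1 CPM in wild-type and at 30.0, 35.8, 33.8 and 29.8 CPM in V338Y mice. The highest V338Y mouse lay below the lowest wild-type mouse, and Myh11 fell to 0.600 of the wild-type level (log2 fold change -0.74, 95% interval -1.05 to -0.42, adjusted p = 0.033). It was the only 1 of the 10 genes called, where 1.92% of the 16420 genes tested were called lower. The call rested on every V338Y mouse and on wild-type mouse 15: without any 1 of these 5 mice the adjusted p rose above 0.05, while the log2 fold change stayed between -0.82 and -0.60 in all alternatives.

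The other 3 smooth muscle genes had the same order of groups without passing the adjusted threshold. Acta2 was at 46.0, 67.9, 43.6 and 46.5 CPM in wild-type and at 31.7, 35.3, 29.9 and 30.8 CPM in V338Y mice (log2 fold change -0.70, -1.09 to -0.31, adjusted p = 0.09). Tagln was at 26.3, 36.4, 20.2 and 24.7 CPM against 19.4, 18.5, 18 and 17.3 CPM (-0.59, -0.99 to -0.18, adjusted p = 0.15). Myl9 was at 40.1, 55.8, 42.2 and 45.3 CPM against 38.9, 36.8, 36.3 and 37.8 CPM (-0.30, -0.48 to -0.12, adjusted p = 0.065). The groups did not overlap in any of the 4 genes, a pattern that 4.83% of the genes tested showed in this direction and 4.49% in the other. In Tagln and Myl9 the nearest mice of the groups were within 1.5 CPM of each other. Their median log2 fold change was -0.64, beside 0.00 for all genes tested.

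Wild-type mouse 13 had the highest level of its group in all 4 smooth muscle genes, and more genes were called without it. The log2 fold changes were then nearer to 0, at -0.51 for Acta2 (adjusted p = 1.2e-05), -0.60 for Myh11 (adjusted p = 6.4e-06) and -0.38 for Tagln (adjusted p = 0.015), so that 3 genes were called; Myl9, at -0.18, was not (adjusted p = 0.19). The median coefficient of variation of the smooth muscle genes was 20% in old wild-type mice, 6.1% in old V338Y, 4.5% in young wild-type and 15% in young V338Y mice, whereas that of the pericyte genes stayed between 9.3% and 13.2%. The 4 genes shared their mice: mouse 13 was the highest of old wild-type and mouse 15 the lowest of young V338Y mice in each.

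None of the 6 pericyte genes was called between genotypes at 19 months by edgeR or by DESeq2. In edgeR 2 of them, Kcnj8 and Rgs5, had an unadjusted p under 0.05, as did 2660 of all 16420 genes tested. Kcnj8 came nearest and pointed up, at 11.4, 13.2, 12.7 and 16.1 CPM in wild-type and at 15.2, 15.4, 18.8 and 16 CPM in V338Y mice. Only wild-type mouse 15 reached into the V338Y range, and the log2 fold change was 0.34 (0.14 to 0.54, adjusted p = 0.054); without mouse 15 Kcnj8 was called and Myh11 was not. Its partner Abcc9 did not share this direction (-0.07, -0.26 to 0.12). Rgs5 was at 398, 386, 427 and 447 CPM against 353, 372, 409 and 386 CPM (-0.12, -0.22 to -0.02, adjusted p = 0.19). Pdgfrb (-0.10, -0.28 to 0.08), Vtn (-0.05, -0.14 to 0.04) and Anpep (-0.19, -0.49 to 0.11) had intervals that included 0. The median of the 6 genes was -0.08.

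The further smooth muscle genes pointed the same way as the 4 members. Of 15 tested, 13 were lower and 2 higher in V338Y mice. In all, 4 were called, all lower (Cnn1, Mylk, Pln and Cald1), where 1.92% of all genes tested were called lower. How these 4 calls depend on single mice or settings was not examined. Cnn1, the actin-binding protein calponin, was at 2.90, 4.22, 1.52 and 1.52 CPM in wild-type and at 0.808, 1.13, 0.627 and 0.858 CPM in V338Y mice (9 to 51 and 8 to 17 counts; log2 fold change -1.66, -2.30 to -1.03, adjusted p = 0.0018). Its groups did not overlap, at counts low enough that the size is uncertain. Mylk, which phosphorylates the Myl9 light chain, was at 44.4, 48.1, 44.5 and 50.7 CPM against 34.2, 40.7, 34.2 and 39.2 CPM (-0.33, -0.46 to -0.20, adjusted p = 0.002). Pln was at 3.79 to 7.45 against 2.72 to 3.94 CPM (-0.76, -1.13 to -0.39, adjusted p = 0.014) and Cald1 (caldesmon) at 52.3 to 58.2 against 43.6 to 50.5 CPM (-0.21, -0.33 to -0.09, adjusted p = 0.035). Wild-type mouse 13 was highest in Cnn1 (4.22 CPM) and Pln (7.45 CPM), as in the 4 members, but not in Mylk or Cald1. Myocd was at 0.887 to 1.35 CPM against 0.333 to 1.11 CPM and was not called (-0.85, -1.58 to -0.12, adjusted p = 0.22).

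Of the 14 further pericyte genes, Tbx18 alone was called, at 14.6, 14.6, 9.54 and 15 CPM in wild-type and 9.29, 9.60, 9.72 and 9.37 CPM in V338Y mice (-0.50, -0.73 to -0.27, adjusted p = 0.0089). Wild-type mouse 14 lay within the V338Y range. The median over the 14 was -0.09. The PDGF ligands were not called, with Pdgfb at -0.02 (-0.19 to 0.15), and Pdgfra was lower by 0.16 (adjusted p = 0.044). Other vessel-wall lists also differed at 19 months, beside the 1.92% of all genes tested that were called lower. Of 15 fibroblast genes 8 were called lower and 1 higher (median -0.27). Among them were Dcn at -0.24 (adjusted p = 0.024) and, in the other direction, Col1a1 at 0.25 (adjusted p = 0.026). The largest decreases in this list were those of Fmod (-0.67, adjusted p = 0.00041), Ogn (-0.64, adjusted p = 0.015) and Slc22a6 (-0.62, adjusted p = 6.7e-05). In each of them the groups did not overlap. All 6 perivascular macrophage genes were lower (-0.58 to -0.15, median -0.32), and 1 of them, the mannose receptor Mrc1, was called (-0.29, adjusted p = 0.042). Their mean log2 CPM was 2.25 to 2.54 in wild-type and 2.02 to 2.25 in V338Y mice. Of 15 endothelial genes 2 were called lower (median -0.11), namely Vwf (-0.42, adjusted p = 0.0026) and Slc2a1 (-0.16, adjusted p = 0.036). Vwf was at 243 ± 20.6 CPM in wild-type and 182 ± 13.2 CPM in V338Y mice, without overlap. Cldn5 (0.16, adjusted p = 0.16) and Pecam1 (-0.15, adjusted p = 0.074) were not called. Beside 2660 of all 16420 genes tested, an unadjusted p under 0.05 was found in 1 of 5 blood and 0 of 8 choroid plexus genes. Their medians were -0.50 and 0.60, and none was called by edgeR. Their part in the smooth muscle values was not tested.

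Whether age acted differently in the genotypes was tested directly over all 16 mice. None of the 10 genes was called, where 9 genes (0.0535%) of the 16831 tested were, and DESeq2 also called none of the 10. The fibroblast gene Fmod was among those 9, with a smaller rise in V338Y mice (-0.87 on the log2 scale, adjusted p = 0.032). The 4 smooth muscle genes all had a smaller rise in V338Y mice, by 0.47 for Acta2 (interval of the difference -0.91 to -0.03, adjusted p = 0.46), 0.51 for Myh11 (-0.90 to -0.13, adjusted p = 0.37), 0.57 for Tagln (-1.01 to -0.13, adjusted p = 0.38) and 0.20 for Myl9 (-0.48 to 0.08, adjusted p = 0.62) on the log2 scale. The first 3 had an unadjusted p under 0.05, as did 1723 of all 16831 genes tested, and the others of the 10 did not. Pericyte differences ranged from -0.46 for Anpep to 0.26 for Kcnj8, and the interval of each included 0. The age and genotype comparisons share groups of mice, so the low smooth muscle values of old V338Y mice enter both.

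Outside the lists, the genes whose mouse-to-mouse deviations within groups most resembled the mean of the 6 pericyte genes over the 16 mice were Rpl18 (Pearson r = 0.849), Mrpl27 (0.833), Ralyl (0.793), Wdr83os (0.788) and Uck2 (0.784). For the 4 smooth muscle genes they were Smpd1 (0.874), Plk4 (0.856), Ciao2b (0.842), Cby1 (0.841) and Pla2g15 (0.835). These are the highest of 12095 genes ranked and share library and depth with the members. None of the 10 shared the age pattern: their log2 fold changes in wild-type mice ran from -0.84 (Ralyl) to 0.27 (Pla2g15).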

How the data were processed

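RNA from 16 mouse brain samples was sequenced by the study as single-end 126-base reads from a stranded mRNA kit. The deposited table holds expected counts per Ensembl gene, made by the authors: their methods name RSEM with GRCm37, whereas the submitters' processing notes name STAR 2.4.2a, featureCounts and GRCm38, and which made the table was not settled. Deposited counts carry 4 significant digits, so that values of 10000 or more end in 0. The extract protocol in the labels speaks of muscle and the tissue label of brain. Counts were used as whole numbers. Identifiers were matched to symbols, positions and exon lengths of GENCODE M21 (GRCm38; 37607 of 39179 matched).

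Groups came from the genotype and age labels. As in the study's methods, a gene was kept when 2 or more of the 4 mice of a group reached 10 counts, and edgeR 4.0.16 (R 4.3.3; TMM, robust quasi-likelihood test, Benjamini-Hochberg over all genes kept, threshold 0.05, or 1e-05 for age as the study used) was fitted to the 8 mice of each comparison and, for the difference of age effects, to all 16. Fold changes are relative to the bulk of genes. Intervals are 95%. CPM are TMM-normalized over 16 libraries, with a prior count of 2 on the log2 scale. The fits were tested on simulated counts. Each sample is labelled as a mouse of its own, and no replicates differed by less than sampling noise.

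Alternatives were RLE size factors, library size only, DESeq2 1.42.0, no filter, 10 counts in every library, all 16 mice in a single fit, and leaving out each mouse. All 10 genes were named, and from each other list at most the 3 with the largest change with age in wild-type mice among those called with a mean of 50 normalized counts; Xist, Ddx3y, Cldn5, Pecam1, Dcn and Col1a1 were named in advance. Others (counts of 5 or fewer, exceptions, the remaining pathway genes, further fibroblast and endothelial genes called between genotypes, Gabra6) were named after their values were seen. The genes and lists were chosen with earlier results of these data known; Notch3, Myocd and Pdgfra stand in more than 1 list. Likeness used genes of at least 5 mean CPM.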

Additional observations from a re-analysis of the deposited data

Results flagged for a closer look

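Acta2 in wild-type mouse 13 at 19 months, at 67.9 CPM, stood apart from the other mice of its group, at 43.6, 46.0 and 46.5 CPM: its gap to the nearest was 0.879 of the group's range, above Dixon's 95% critical value for 4 samples. It was the only flag among 40 groups of 4 values tested (10 genes in 4 groups), fewer than the about 1 in 20 that chance gives. The same mouse was highest in Myh11, Tagln and Myl9, where the gap stayed under that value, and it had 2 highest and 2 lowest of the 6 pericyte genes.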

How the results depend on the processing

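All 10 genes were called higher with age in both genotypes, and none between genotypes at 3 months or in the difference of the age effects, under every alternative run. Between genotypes at 19 months 1 gene was called; library size only gave 2 (Kcnj8, Myh11), DESeq2 3 (Acta2, Myh11, Myl9), no filter 4 (Kcnj8, Myh11, Myl9, Tagln) and a fit of all 16 mice 3 (Acta2, Myh11, Tagln). Leaving out 1 mouse gave 0 to 3. The cause was not tested. Over all genes the 19-month genotype calls were 512 (316 lower), 620 (263 lower) with library size only, 791 with no filter, 387 with DESeq2, 116 with all 16 mice and 287 to 611 without 1 mouse; at 3 months they were 10, and 26, 20 and 23 with DESeq2, no filter and all 16 mice. For the difference of the age effects they were 9, and 43 and 32 with DESeq2 and no filter, and 1 to 57 without 1 mouse. The smooth muscle minus pericyte mean kept the sign of its difference in each pairwise comparison without each mouse.

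Log2 fold changes near 0 changed sign. At 3 months Tagln was 0.000106, 0.000707, 0.00381 and 0.00521 with library size only, DESeq2, no filter and 10 counts in every library, and -0.05 to 0.05 without 1 mouse. Without 1 mouse Pdgfrb was -0.00767 to 0.10 and Abcc9 -0.14 to 0.02 at 3 months, Vtn -0.08 to 0.00196 at 19 months, and the difference of the age effects of Abcc9 -0.11 to 0.07.

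No paired analysis was possible because, by the study's methods, the mice were killed for sampling at 3 or 19 months. Number 12 stands in both wild-type groups, with Ddx3y at 128 CPM at 3 months and Xist at 762 CPM at 19 months. Depth limits Anpep, Tagln and Kcnj8 at 3 months most, at 16 to 86 counts per library. With 4 mice a group, intervals at 3 months allow differences of up to about 0.5 on the log2 scale in Acta2 and Myh11. Sex, the -N mark in the sample titles and cerebellum content cannot be told apart from age. Mouse 14, with few cerebellum reads, is 1 library and does not separate them.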
